A study of Mus musculus with 4 samples.

Results

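The heterogeneous nuclear ribonucleoproteins (hnRNPs) and the core splicing factors are the proteins that coat new transcripts and remove their introns. They were followed here in brain endothelial cells of control mice and of mice with a conditional knockout of the PD-1 gene. The hnRNP gene Raly was set beside its closest relative, Hnrnpc. The genes were chosen by name: Raly, Ralyl, and every symbol that starts with Hnrnp, with Srsf and a digit, with Sf3a or Sf3b and a digit, with Snrp and a letter from a to g, or with Snrnp, leaving out symbols that hold -ps. This gave 60 of the 21578 genes in the deposited tables, 59 of them protein coding. The remaining gene, Snrpert, is a processed copy of Snrpe.

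RNA was sequenced from cortical endothelial cells of C57BL/6 mice at postnatal day 0 (P0), sorted by flow cytometry after labelling for CD31 (endothelium) and CD45 (blood cells), with 2 libraries for each genotype. Control mice carried Pd1 alleles flanked by loxP sites (Pd1fl/fl), and in Pd1cKO-Tie2 mice the same alleles were recombined by Cre under the Tie2 promoter, which is active in endothelium and also in blood cell lineages. Both genotypes thus carry the floxed alleles, and they differ in Cre as well as in PD-1. No source states whether the libraries came from separate animals or pools, so the p-values measure the spread between these samples, which may be technical.

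An hnRNP protein binds nascent RNA and can block or expose splice sites, whereas SR proteins (the Srsf genes) mostly bind exons and recruit the splicing machinery. That machinery, the spliceosome, is built from small nuclear ribonucleoproteins (snRNPs), each an RNA in a ring of Sm proteins with proteins of its own. RALY and hnRNP C are RNA-binding proteins of one family, RALYL is a relative best known from brain, and hnRNP C packages long nascent transcripts through uridine-rich stretches.

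The libraries held 14359990 and 13715837 counted reads in Pd1fl/fl, against 24147311 and 14157027 in Pd1cKO-Tie2. Pdcd1, which encodes PD-1, had 32 reads in Pd1fl/fl replicate 1 and was not listed for replicate 2, and it was listed at 0 in each Pd1cKO-Tie2 library, so that its level does not check the labels. The summed level of 10 endothelial markers was 13709 and 12888 CPM (reads relative to library size, here scaled between libraries by TMM) in Pd1fl/fl, against 16700 and 17405 in Pd1cKO-Tie2, and 10 of 10 were higher in both Pd1cKO-Tie2 libraries. Summed microglial markers were 1966 and 2449 CPM against 767 and 1655 (8 of 8 with a fold change below 1), and astroglial markers 1061 and 1098 against 735 and 593 (8 of 8 below 1). Neutrophil markers summed to 891 and 24.5 CPM against 55.4 and 1.17, so that Pd1fl/fl replicate 1 stood apart. The summed neuronal (1004 to 1375), oligodendrocyte lineage (93.8 to 190), mural (3550 to 5489) and erythroid (548 to 1063) levels overlapped between the genotypes. No marker of these 8 lists was at 0 in every library. The part of these differences in the results was not tested, and in bulk samples fewer cells of a type and less RNA per cell cannot be told apart.

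Of the genes followed, Raly alone met the criterion of a change of at least 2-fold with p of 0.05 or less, and it rose. It held 565 and 460 reads in Pd1fl/fl, against 2123 and 1299 reads in Pd1cKO-Tie2, or 39.2 and 32.4 CPM against 88.9 and 95.1 CPM. The genotypes were well separated, and within a genotype the libraries differed by 1.21-fold and 1.07-fold. The ratio of the means, 35.8 ± 4.80 and 92.0 ± 4.45 CPM (SD, n = 2), was 2.57. Fitted with edgeR, the log2 fold change was 1.36 (standard error, SE, 0.23). The unadjusted p was 0.00129 and the adjusted p 0.735 over all 15909 genes tested. In DESeq2 the adjusted p was 0.00389. Raly met the criterion whichever library was left out, with a log2 fold change of 1.51 without Pd1fl/fl replicate 1 and 1.23 without Pd1fl/fl replicate 2. Of all tested genes, 4.02% met the criterion, 1.41% as higher and 2.61% as lower in Pd1cKO-Tie2. No gene reached an adjusted p under 0.05 in edgeR, where 1016 had an unadjusted p under 0.05, and 114 genes (0.672%) did in DESeq2. Raly was the 1 of 59 members (1.69%) counted by either rule. The study picked Raly from these same libraries for quantitative PCR, so its rise is not independent evidence. For that assay the study's figure legend prints p-values for Gpr124, Grem1, Gm7696 and Trpm6, and none for Raly. The 10 endothelial markers had log2 fold changes from 0.27 to 0.47, below that of Raly. The part of cell composition in the rise of Raly was not tested.

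**Figure D1:**
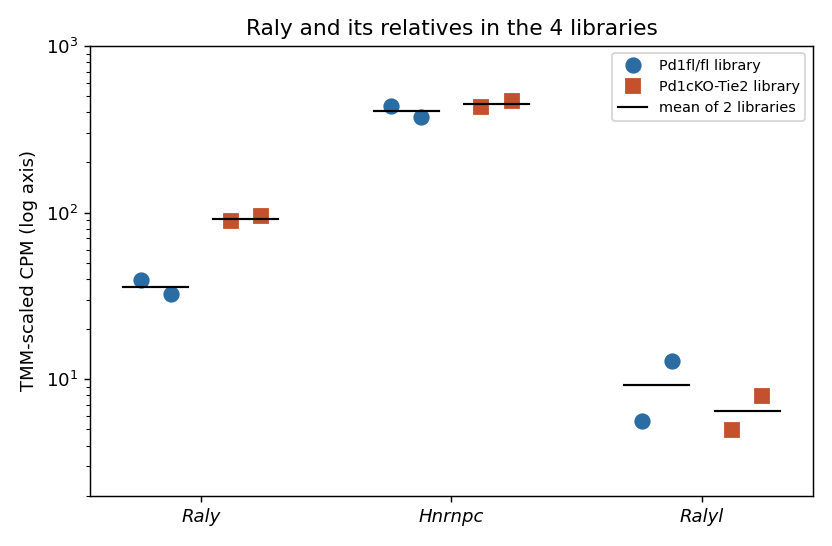
TMM-scaled CPM on a log axis (vertical) for Raly, Hnrnpc and Ralyl, with 1 point for each library (circles, Pd1fl/fl; squares, Pd1cKO-Tie2) and lines at the means of 2 libraries. The Raly points form separate pairs at 32.4 to 39.2 and 88.9 to 95.1 CPM, whereas the genotypes overlap for Hnrnpc and for Ralyl.

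Hnrnpc, the closest relative of Raly, did not meet the criterion. It held 435 and 373 CPM in Pd1fl/fl, against 431 and 465 CPM in Pd1cKO-Tie2, so that the libraries of the genotypes overlapped. Its log2 fold change was 0.15 (SE 0.15). Ralyl was the scarcest of the family, with 5.62 and 12.9 CPM in Pd1fl/fl, against 4.94 and 7.91 CPM in Pd1cKO-Tie2, and its log2 fold change was -0.53 (SE 0.68). The Pd1fl/fl libraries differed by 2.29-fold in Ralyl, and without Pd1fl/fl replicate 2 its log2 fold change was 0.19.

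The 3 genes share an RNA recognition motif near the amino terminus, and the stretch that the study's Raly primers amplify lies in it. It is shown because it lets the relatives be compared base by base, and because reads from one could be counted for another only where they match. The primers bound a 140-base product within exon 3 of the Raly transcript ENSMUST00000029120 (GENCODE M21), at chr2:154857336-154857475 of GRCm38 on the plus strand, in coding sequence, and 7 of the 10 annotated Raly transcripts hold both primer sites. In the Raly line the capitals mark the primer sites, and in the other lines they mark the bases that differ from Raly. The Hnrnpc line is aligned to bases 3 to 136 of the Raly line, and the Ralyl line to bases 1 to 139.
Raly: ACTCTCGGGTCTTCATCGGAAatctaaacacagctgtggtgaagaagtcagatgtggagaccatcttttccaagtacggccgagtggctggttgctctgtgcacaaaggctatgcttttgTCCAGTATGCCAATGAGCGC
Hnrnpc: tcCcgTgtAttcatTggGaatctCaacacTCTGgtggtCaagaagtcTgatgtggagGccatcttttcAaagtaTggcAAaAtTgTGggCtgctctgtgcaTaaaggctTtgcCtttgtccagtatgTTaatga
Ralyl: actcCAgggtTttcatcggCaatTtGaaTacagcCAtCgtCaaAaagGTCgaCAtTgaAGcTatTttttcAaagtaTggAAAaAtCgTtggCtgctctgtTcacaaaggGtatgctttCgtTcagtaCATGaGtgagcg
The Hnrnpc stretch (chr14:52084177-52084310, minus strand, ENSMUST00000111610) was identical to Raly at 107 of 134 aligned bases, or 79.9%. The Ralyl stretch (chr3:13776906-13777044, plus strand, ENSMUST00000193117) was identical at 99 of 139 bases, or 71.2%. Over whole transcripts, the longest run of identical bases was 13 between Raly and Hnrnpc and 14 between Raly and Ralyl. Of the 50-base stretches of Raly, 2.86% occur in transcripts of another gene, and that gene was nonagouti (a), not a relative. For Hnrnpc the share was 8.28%, in pseudogene transcripts, and for Ralyl 30.9%, in Gm2464, a gene on the opposite strand, so that the Ralyl count is uncertain.

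The position of Raly within its family did not depend on how the libraries were scaled, since it can be read as a ratio inside each library. Raly made up 8.16% of the summed reads of Raly, Hnrnpc and Ralyl in Pd1fl/fl replicate 1 (95% Wilson interval 7.54% to 8.83%) and 7.74% in replicate 2 (7.09% to 8.45%). In Pd1cKO-Tie2 it made up 16.9% in replicate 1 (16.3% to 17.6%) and 16.7% in replicate 2 (15.9% to 17.6%). The intervals, which cover counting error only, overlapped within each genotype and not between genotypes. The log2 ratio of Raly to Hnrnpc reads was -3.47 and -3.53 in Pd1fl/fl, against -2.28 and -2.29 in Pd1cKO-Tie2. The difference of 1.22 on the log2 scale, or 2.32-fold, exceeded the SDs of 0.037 and 0.0088 within the genotypes. With 2 libraries against 2, a two-sided exact permutation test cannot give a p below 0.333, and it gave 0.333.

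**Figure D2:**
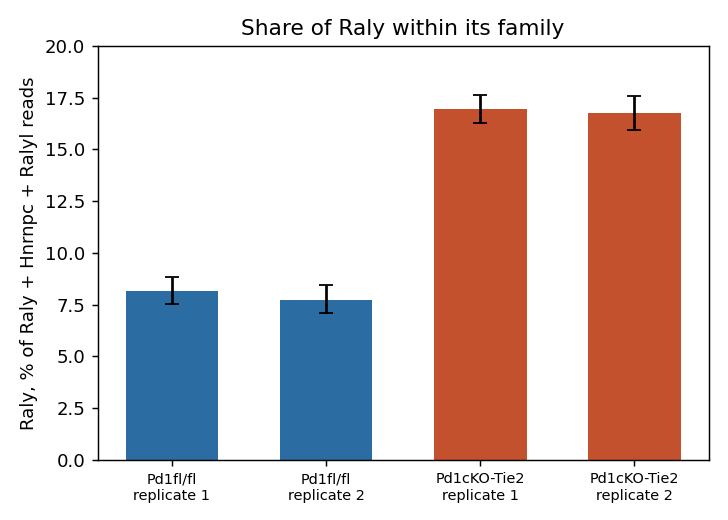
Percent of the reads of Raly, Hnrnpc and Ralyl together that fell to Raly (vertical axis, from 0) in each of the 4 libraries, with 95% Wilson intervals as error bars (counting error only). The Pd1fl/fl bars stand at 8.16% and 7.74% and the Pd1cKO-Tie2 bars at 16.9% and 16.7%.

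Per kilobase of merged exons, Raly stayed the less abundant of the pair in both genotypes. Its level was 10.9 ± 1.46 CPM per kilobase in Pd1fl/fl, against 27.9 ± 1.35 in Pd1cKO-Tie2 (SD, n = 2). The levels of Hnrnpc were 93.5 ± 10.2 and 103.6 ± 5.65 CPM per kilobase. Raly thus amounted to 0.118 and 0.114 of the Hnrnpc level per length in the Pd1fl/fl libraries and to 0.271 and 0.269 in the Pd1cKO-Tie2 libraries. Among the 60 members by level per length, Raly ranked 36 in Pd1fl/fl and 21 in Pd1cKO-Tie2, and Hnrnpc ranked 9 and 7. The ratio of Raly to each of the 57 other members with a count in every library was higher in both Pd1cKO-Tie2 libraries for 55 of them. The exceptions were Srsf9 and Hnrnpll. The differences of the genotype means ran from 0.48 to 1.96 on the log2 scale. All 57 ratios rest on the same Raly reads.

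Raly lies on chromosome 2 from 154791096 to 154867261 on the plus strand (GRCm38). The closest genes on either side, within 200 kb, were read for comparison. Eif2s2, which encodes a subunit of a translation initiation factor and lies just downstream, held 166 and 135 CPM in Pd1fl/fl, against 142 and 175 in Pd1cKO-Tie2, and the genotypes overlapped. Pxmp4, a peroxisomal membrane protein gene, held 159 and 242 reads against 641 and 305, or 11.03 and 17.05 CPM against 26.8 and 22.3, with a log2 fold change of 0.81 (SE 0.39). Its genotypes did not overlap, but it missed the criterion. Ahcy, which encodes adenosylhomocysteinase, had a log2 fold change of -0.25 (SE 0.51), and the values of Zfp341 and Chmp4b, -0.39 and 1.10, had SEs above 1. The nonagouti gene, whose exons share 147 bases with those of Raly on the same strand, was counted with 31 reads in Pd1fl/fl replicate 1, was not listed for replicate 2, and was listed at 0 in each Pd1cKO-Tie2 library.

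The other 58 members that passed the filter on low counts did not meet the criterion, and their lowest unadjusted p was 0.0733. The edgeR adjusted p was 0.735 or above for every member, Raly included. Of all 59, 27 had a log2 fold change above 0 and 32 below 0, with a median of -0.02, and the median over all tested genes was -0.0038. The change stayed under 1.5-fold in 53 members (89.8%) and in 67.2% of all tested genes. The spread of fold changes narrowed with abundance. Between the lower and upper quartiles of the members' levels, from 21.3 to 226 CPM, the median size of the log2 fold change was 0.12 over 29 members and 0.22 over 6341 genes. Snrpert, with 2 and 4 reads in Pd1fl/fl, against 13 and 2 in Pd1cKO-Tie2, did not pass the filter.

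**Figure D3:**
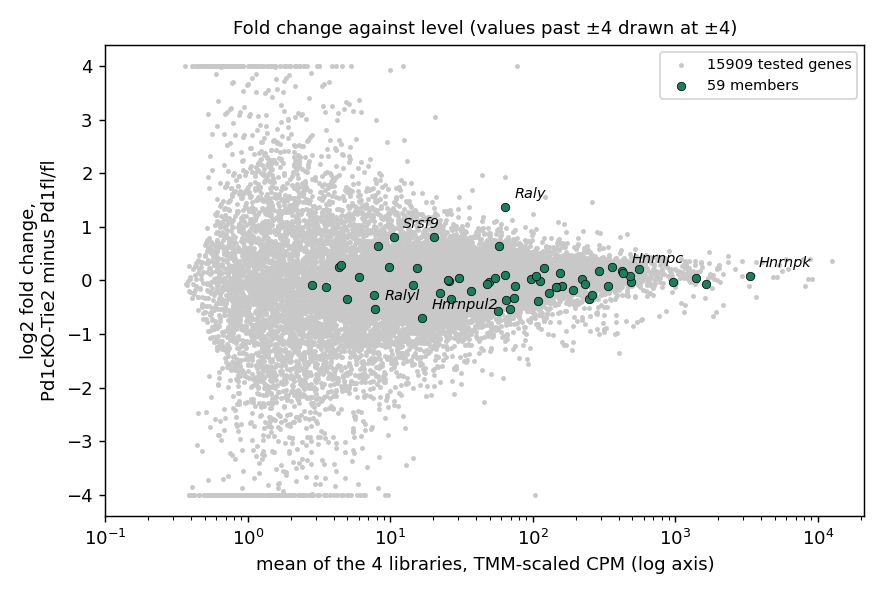
Log2 fold change, Pd1cKO-Tie2 minus Pd1fl/fl (vertical), against the mean of the 4 libraries in TMM-scaled CPM on a log axis, for the 15909 tested genes (grey) and the 59 members (green). Members lie close to 0 with Raly apart at 1.36, and the spread of all genes narrows towards high CPM.

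The members differed between libraries of one genotype about as much as between genotypes. The median size of the log2 ratio of 2 libraries over 58 members with a count in every library was 0.17 within Pd1fl/fl, 0.19 within Pd1cKO-Tie2 and between 0.16 and 0.22 for the 4 pairs across genotypes. Over 13942 genes these medians were 0.42, 0.41 and 0.42 to 0.45. Together the members took 1.43% and 1.42% of all reads in Pd1fl/fl, against 1.41% and 1.37% in Pd1cKO-Tie2. Hnrnpk alone made up 22.8% to 24.4% of the members' reads.

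Each Pd1cKO-Tie2 library exceeded each Pd1fl/fl library for 11 members (18.6%) and fell short of each for 11 (18.6%), and over all tested genes these shares were 17.7% and 18.1%. With scaling by library size the members numbered 6 above (10.2%) and 17 below (28.8%), and the shares over all tested genes were 14.7% and 21.1%. The counts thus moved with the scaling, and the families are described mainly by their values.

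**Figure D4:**
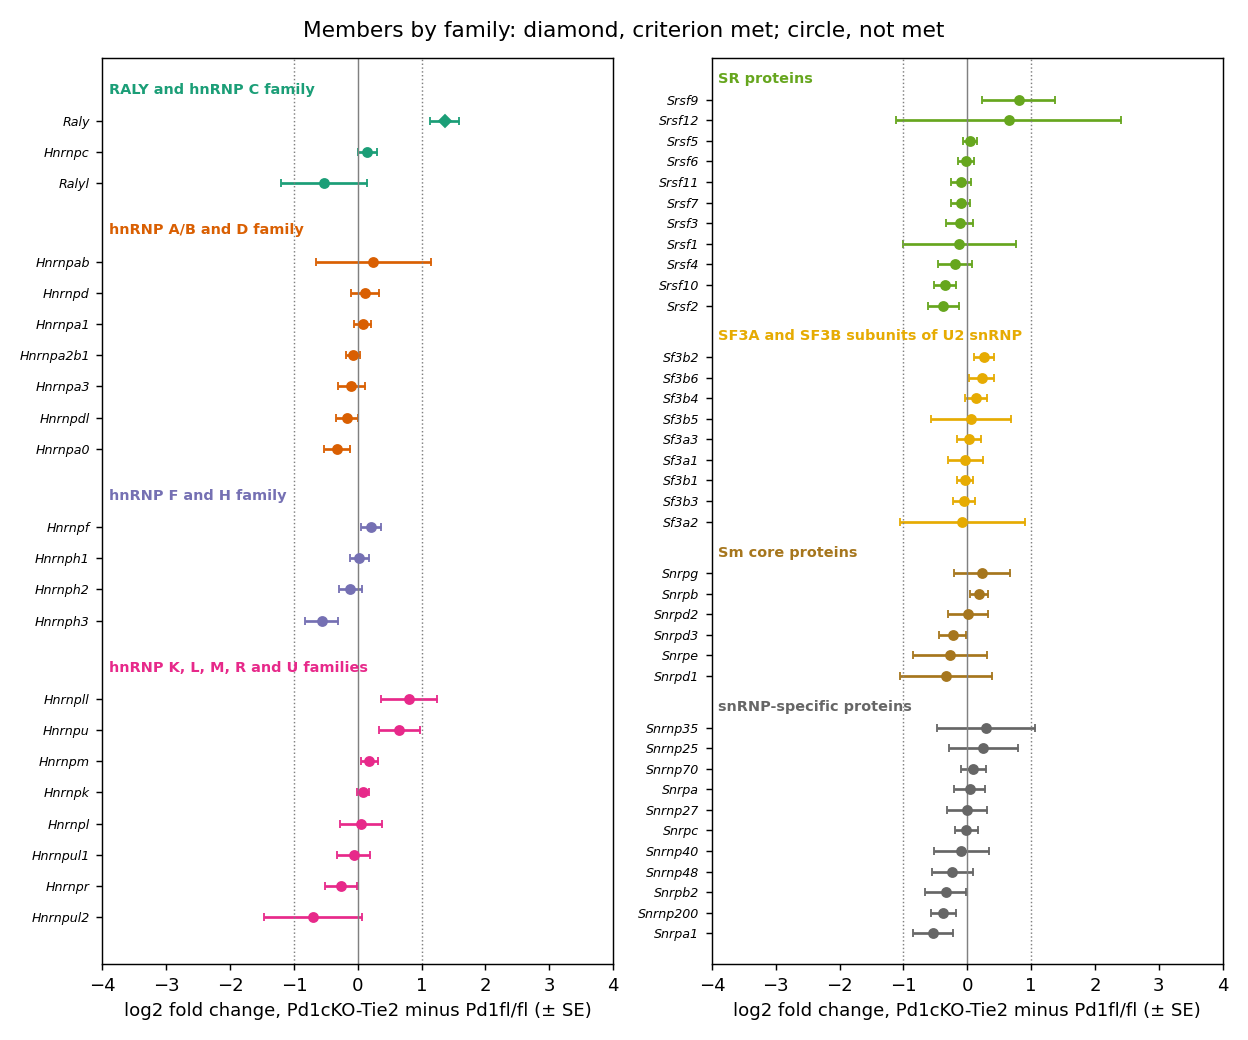
Log2 fold change, Pd1cKO-Tie2 minus Pd1fl/fl, with its SE as error bar (horizontal), for the 59 tested members in 8 families. Dotted lines mark 2-fold changes, and Raly, the only diamond, lies past them at 1.36, whereas the 58 circles (criterion not met) lie between -0.69 and 0.80.

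Among the hnRNP A/B and D genes, which encode abundant RNA-binding proteins that often repress exons, 0 of 7 met the criterion (3 above and 4 below 0, median log2 fold change -0.07). Hnrnpa2b1 had the highest level per length of the group and held 1751 and 1586 CPM in Pd1fl/fl, against 1549 and 1628 in Pd1cKO-Tie2. Hnrnpa0 held 84.8 and 79.8 CPM in Pd1fl/fl, against 63.6 and 67.7 in Pd1cKO-Tie2, a log2 fold change of -0.33 (SE 0.20). On the TMM scale it was the only gene of the group whose libraries did not overlap between the genotypes. Hnrnpab was scarce, with 86 and 29 reads in Pd1fl/fl, against 101 and 72 in Pd1cKO-Tie2, and the Pd1fl/fl libraries alone differed by 2.92-fold in CPM. Its log2 fold change of 0.25 (SE 0.90) turned to -0.33 without Pd1fl/fl replicate 2. For Hnrnpa1, Hnrnpa3 and Hnrnpab, between 23.8% and 28.2% of their 50-base stretches occur in other transcripts, so that their counts are uncertain.

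In the hnRNP F and H family, whose proteins bind runs of guanines, 0 of 4 met the criterion. Hnrnpf, the most abundant per length, held 578 and 457 CPM in Pd1fl/fl, against 598 and 600 in Pd1cKO-Tie2 (log2 fold change 0.21, SE 0.16). Of its 50-base stretches 61.9% occur in other transcripts. Hnrnph3 held 59.2 and 77.6 CPM against 49.9 and 42.7. The Pd1cKO-Tie2 libraries were the lower pair, and the log2 fold change of -0.56 (SE 0.26) had the smallest p among the members after Raly. Hnrnph1 and Hnrnph2 had log2 fold changes of 0.02 and -0.12.

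Among the 8 genes of the hnRNP K, L, M, R and U families, none met the criterion. On the TMM scale 4 of them (50%) were higher in each Pd1cKO-Tie2 library than in each Pd1fl/fl library. Over all tested genes this share was 17.7%. Hnrnpk, whose protein binds cytosine-rich RNA through KH domains, was the most abundant member per length (513 CPM per kilobase). It held 3309 and 3137 CPM in Pd1fl/fl, against 3481 and 3352 in Pd1cKO-Tie2, a log2 fold change of 0.08 (SE 0.09). Hnrnpll, known as a regulator of exon choice in lymphocytes, held 11.2 and 18.4 CPM against 32.0 and 19.6 (log2 fold change 0.80, SE 0.44). On the TMM scale the lower Pd1cKO-Tie2 library lay just above the higher Pd1fl/fl library. With scaling by library size the genotypes overlapped for both Hnrnpk and Hnrnpll. Hnrnpu, which encodes a nuclear scaffold protein, held 56.7 and 32.7 CPM against 68.1 and 72.2 (log2 fold change 0.65, SE 0.32). The log2 fold change of Hnrnpu was 1.10 without Pd1fl/fl replicate 1 and 0.31 without Pd1fl/fl replicate 2. Hnrnpul2 varied most within a genotype, with 33.1 and 8.52 CPM in Pd1fl/fl, against 18.4 and 7.25 in Pd1cKO-Tie2. In each genotype replicate 1 was the higher library, and the log2 fold change of -0.69 (SE 0.77) turned to 0.59 without Pd1fl/fl replicate 1.

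Of the 11 SR protein genes, 0 met the criterion, 3 had a log2 fold change above 0 and 8 below 0, and the median was -0.11. Srsf5 led by level per length, with 1415 and 1357 CPM in Pd1fl/fl, against 1339 and 1513 in Pd1cKO-Tie2, and the genotypes overlapped. Srsf10, which encodes an atypical SR protein that represses splicing when dephosphorylated, held 276 and 284 CPM against 196 and 243 (log2 fold change -0.35, SE 0.17). Srsf2 held 62.9 and 83.3 CPM against 57.9 and 54.9 (log2 fold change -0.37, SE 0.24). Both genes had their Pd1cKO-Tie2 libraries below the Pd1fl/fl libraries, and 20.7% of the 50-base stretches of Srsf2 occur in other transcripts. Srsf9 held 71 and 149 reads in Pd1fl/fl, against 373 and 154 in Pd1cKO-Tie2, or 4.93 and 10.5 CPM against 15.6 and 11.3. Its log2 fold change of 0.80 (SE 0.58) was the highest after that of Raly, and the Pd1fl/fl libraries differed by 2.13-fold. It was 0.36 without Pd1fl/fl replicate 1 and 1.45 without Pd1fl/fl replicate 2, and met the criterion in neither case. Srsf12 was the most uneven member, with 0 and 182 reads in Pd1fl/fl, against 255 and 129 in Pd1cKO-Tie2. The count of 0 in Pd1fl/fl replicate 1 allows up to 3 reads, or 0.209 CPM, whereas the other libraries held 9.45 to 12.8 CPM. Without Pd1fl/fl replicate 2, Srsf12 met the criterion as higher, and without Pd1fl/fl replicate 1 its log2 fold change was -0.35.

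The SF3A and SF3B genes encode the subunits of the U2 snRNP that hold the branch point, and 9 of 9 stayed within 1.5-fold. So did every tested gene of the hnRNP A/B and D, hnRNP F and H, Sm core and single-snRNP groups. The SF3A and SF3B genes had the smallest median size of the log2 fold change among the 8 families (0.059). Their log2 fold changes ran from -0.08 to 0.26, with a median of 0.02. Sf3b1, whose protein contacts the branch point region, held 916 and 1041 CPM in Pd1fl/fl, against 991 and 918 in Pd1cKO-Tie2. Sf3b2 held 349 and 302 CPM against 409 and 370 (log2 fold change 0.26, SE 0.15), and Sf3b6 115 and 107 CPM against 116 and 143 (log2 fold change 0.22, SE 0.20). On the TMM scale the Pd1cKO-Tie2 libraries lay above the Pd1fl/fl libraries in both. With scaling by library size the genotypes overlapped for Sf3b6. Sf3a1 varied most within a genotype, with 41.2 and 56.8 CPM in Pd1cKO-Tie2, on either side of the 52.7 and 47.5 CPM in Pd1fl/fl. The count of Sf3b4 is uncertain, since 45.3% of its 50-base stretches occur in other transcripts.

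Of the Sm core genes, whose products form the ring around the snRNA, 6 were tested and 0 met the criterion, and Snrpf was not analysed here. Snrpb, the most abundant per length, held 287 and 262 CPM in Pd1fl/fl, against 310 and 312 in Pd1cKO-Tie2 (log2 fold change 0.18, SE 0.14). Snrpd1 held 5.41 and 5.64 CPM against 4.19 and 4.54, without overlap, but on 62 to 100 reads per library (log2 fold change -0.34, SE 0.72). Snrpg held 14.5 and 14.02 CPM in Pd1fl/fl, against 12.1 and 21.4 in Pd1cKO-Tie2, so that the Pd1cKO-Tie2 libraries lay on either side.

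Of the 11 genes for proteins of single snRNPs, 0 met the criterion. On the TMM scale 4 (36.4%) were lower in each Pd1cKO-Tie2 library than in each Pd1fl/fl library. Over all tested genes this share was 18.1%, and such counts moved with the scaling. Snrpa1, a U2 protein gene, held 83.2 and 80.0 CPM in Pd1fl/fl, against 71.1 and 41.2 in Pd1cKO-Tie2 (log2 fold change -0.54, SE 0.31). The libraries of Pd1cKO-Tie2 differed by 1.73-fold, the widest ratio in this group. Snrpb2, also of the U2 snRNP, held 33.2 and 26.3 CPM against 20.97 and 26.1 (log2 fold change -0.34, SE 0.32). Snrnp200, the helicase that unwinds the U4 and U6 RNAs, held 124 and 121 CPM against 84.7 and 104 (log2 fold change -0.37, SE 0.20). Snrnp35, of the minor spliceosome, held 4.30 and 3.80 CPM against 5.52 and 4.39 (log2 fold change 0.29, SE 0.77). It rested on 54 to 132 reads per library. Both Pd1cKO-Tie2 libraries lay above on the TMM scale, and the genotypes overlapped with scaling by library size.

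The splicing genes outside these families were read from lists drawn up by role. Of 46 other spliceosome components 46 were tested, of 41 splicing regulators 39, and of 7 splicing factor kinases 7, and 0 of these 92 met the criterion. By unadjusted p under 0.05 in edgeR there were 2, and by adjusted p under 0.05 in DESeq2 there were 0. Over all tested genes, 4.02% met the criterion, and 1016 of 15909 had an unadjusted p under 0.05 in edgeR. In DESeq2, 114 of 16976 genes (0.672%) had an adjusted p under 0.05. Tia1, which encodes a regulator that binds uridine-rich sequence next to 5′ splice sites, held 105 and 132 CPM in Pd1fl/fl, against 75.4 and 66.9 in Pd1cKO-Tie2 (log2 fold change -0.74, SE 0.22). Dhx15, the helicase that takes spent spliceosomes apart, held 151 and 152 CPM against 89.4 and 106 (log2 fold change -0.63, SE 0.19). Both had separate libraries but a change under 2-fold, and they were named after their values were seen. The median log2 fold change was -0.04 for the spliceosome components, -0.05 for the regulators and -0.17 for the kinases, against -0.0038 over all tested genes.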

How the data were processed

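The authors deposited 4 tables, each setting 1 Pd1cKO-Tie2 beside 1 Pd1fl/fl library, with unnormalized read counts per gene and with CPM, which is the count divided by the library total. The submitters' processing notes name Bowtie2 2.2.3, TopHat2 2.0.12 and HTSeq 0.6.0 and the build mm9, whereas 90.1% of the gene positions in the tables equal GENCODE M21 (GRCm38). Use of strand is not given in the sources used here. The tables' columns of fold changes and p-values of single pairs were not used, and the deposited CPM served to recover library totals (13715837 to 24147311). The tables were joined by gene, and genes unlisted for a library were set to 0. Every listed gene had a count in both libraries of its pair or at least 5 in 1 of them. Unlisted genes were therefore taken to hold at most 4 reads, which was not tested. Skipped were 10 broken lines, and 23 symbols turned into dates were restored.

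Counts were tested with the quasi-likelihood test of edgeR 4.0.16 (R 4.3.3), with filterByExpr, TMM scaling and no covariate, after the scripts were tested on simulated data. Adjusted p-values (Benjamini-Hochberg) run over 15909 genes, and standard errors were derived from F statistics. DESeq2 1.42.0, limma-voom (limma 3.58.1), other filters and scalings, thinning and leaving out each library were alternatives. The criterion of at least 2-fold with p of 0.05 or less follows the study's methods. Levels per length use merged GENCODE exons, and shared sequence was searched in its transcripts. No sample label holds the number of the other Pd1cKO-Tie2 column, so only its genotype was taken from its name. Replicate numbers are those of the columns. Members and gene lists were chosen with earlier results of these data known. Named members are Raly, Ralyl and Hnrnpc, members that met the criterion, the 8 largest rises and 8 largest falls without overlap, and in each family the most abundant per length and the most uneven within a genotype.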

Additional observations from a re-analysis of the deposited data

How the results depend on the processing

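Raly met the criterion under all 12 alternatives, with log2 fold changes from 1.23 to 1.51 and p up to 0.00876, and Hnrnpc met it under none (0.04 to 0.27). The adjusted p of Raly was under 0.05 in DESeq2 alone. Leaving out each library gave 1.23 to 1.51 for Raly, 0.04 to 0.27 for Hnrnpc, 1.19 to 1.24 for the difference in the log2 ratio of Raly to Hnrnpc, 1 to 2 members called higher, 0 called lower, and 689 to 877 genes in all. The second member was Hnrnpu without Pd1fl/fl replicate 1 and Srsf12, set against a count of 0, without Pd1fl/fl replicate 2. Among other splicing genes the same step gave 0 to 1 called higher (Nova2, without Pd1fl/fl replicate 2) and 0 to 2 lower (Nova1 and Elavl4, without Pd1cKO-Tie2 replicate 1), and limma-voom called 1 lower (Nova1). Scaling by library size gave 6 members above and 17 below without overlap, and thinning gave 6 above and 15 below (14.6% and 20.8% of all tested genes). With lengths of the longest transcript Raly ranked 24, not 25, over the 4 libraries, and the level per length of Raly relative to Hnrnpc was 0.140 in Pd1fl/fl and 0.325 in Pd1cKO-Tie2. On the TMM scale the members summed to 1.40% in Pd1fl/fl and 1.42% in Pd1cKO-Tie2, so the order of the genotypes turned. Of 311 values of single named members under alternatives, 12 changed sign and 2 came to meet the criterion. Leaving out each library, the log2 fold change ran from -1.003 to 0.19 for Ralyl, -0.14 to 0.0060 for Hnrnpa2b1, -0.33 to 1.22 for Hnrnpab, -1.51 to 0.59 for Hnrnpul2, -0.045 to 0.14 for Srsf5, -0.35 to 10.45 for Srsf12 (against a count of 0, so no bound), -0.12 to 0.064 for Sf3b1, -0.28 to 0.19 for Sf3a1 and -0.23 to 0.59 for Snrpg. Library size scaling gave -0.022 for Srsf5. The cause was not tested. A genotype left with 1 library was assumed to vary like the other. No paired analysis was possible because the labels share only 1 replicate number between the genotypes.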

Other observations

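Genes whose proteins enter one particle in equal numbers were not matched in CPM per kilobase. Each Sm ring holds a single copy of each Sm protein, yet the level per length, as the mean of the 4 libraries, was 148 CPM per kilobase for Snrpb and 2.41 for Snrpd1. Within the SF3A and SF3B subunits it was 85.0 CPM per kilobase for Sf3b1 and 71.6 for Sf3b4, against 1.06 for Sf3a2 and 1.58 for Sf3b5. Srsf1, which encodes a widely studied SR protein, had the lowest level per length of all 60 members, 0.620 CPM per kilobase, on 61 and 45 reads in Pd1fl/fl, against 90 and 41 in Pd1cKO-Tie2. Srsf6 of the same family stood at 101 CPM per kilobase. With the length of the longest transcript in place of merged exons, the levels were 171 CPM per kilobase for Snrpb, 5.76 for Snrpd1, 156 for Sf3b1, 80.8 for Sf3b4, 1.28 for Sf3a2, 1.58 for Sf3b5, 138 for Srsf6 and 0.661 for Srsf1, again the lowest of the 60. By genotype, Srsf1 held 3.70 ± 0.75 CPM in Pd1fl/fl and 3.38 ± 0.54 in Pd1cKO-Tie2 (SD, n = 2). In the reference transcripts 0.882% of the 50-base stretches of Srsf1, 0.372% of Sf3b5, 5.56% of Snrpd1 and 15.9% of Sf3a2 occur in another gene. For Sf3b4 the share was 45.3%, so that its level is uncertain. Other genes overlap 1.72% of the exon bases of Srsf1, none of those of Snrpd1 and Sf3b5, and 16.1% of those of Sf3a2. The part of read assignment in these levels was not tested. The genes were singled out after their values were seen.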
